A study of Homo sapiens with 12 samples.

Results

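The grainyhead-like genes GRHL1, GRHL2 and GRHL3, the OVOL genes OVOL1 and OVOL2, and the ESRP genes ESRP1 and ESRP2 were followed in human embryonal carcinoma cells (hECCs) after knock-down of SOX2. These 7 genes were chosen by name, with earlier results of these data known. Shares of members called therefore do not come from an independent choice. Of them, 6 were each measured by 1 probe set, among 18404 genes measured in all. By RefSeq, GRHL1 lies on chromosome 2, GRHL2 and ESRP1 on chromosome 8, GRHL3 on chromosome 1, OVOL1 on chromosome 11, OVOL2 on chromosome 20 and ESRP2 on chromosome 16. ESRP1 was matched to no probe set of a single gene in the annotation used and was not analysed here. Expression was profiled on 12 whole-transcript arrays, 3 biological replicates in each of 4 groups. 2102Ep cells and NTera-2 cells each received siSOX2, an siRNA that targets SOX2 mRNA, or the control siRNA Silencer Select Negative Control #1. Transfection lasted 6 hours and RNA was taken 72 hours later. 2102Ep is a nullipotent hECC line taken at passages 35 to 50, and NTera-2 is a pluripotent hECC line taken at passages 40 to 50. The transfection reagent was Lipofectamine 2000 in 2102Ep cells and Lipofectamine RNAiMAX in NTera-2 cells, and the siRNA concentration also differed between the lines, so cell line and transfection cannot be told apart. Each group is a transfected pool of a single cell line, and both siRNA groups of a line differ only in the siRNA.

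Epithelial cells keep their identity through a small set of nuclear regulators. Grainyhead-like proteins bind DNA as dimers and activate genes of cell junctions and the epidermal barrier, among them E-cadherin and claudins. OVOL proteins are zinc finger transcription factors that mostly repress, and their targets include ZEB genes, which in turn repress the epithelial programme. ESRP proteins act after transcription: they bind RNA and direct the splicing of transcripts such as FGFR2, CD44 and CTNND1 towards their epithelial isoforms. GRHL3 is required for closure of the neural tube and for the skin barrier in mice, and grainyhead-like genes are switched on as the surface ectoderm forms.

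Promoter sequence is shown for the members that the RefSeq promoter table holds (GRCh38.p14), which were 2 of the 7: GRHL3, the member that moved most in NTera-2 cells, with 2 annotated starts, and GRHL1, the other member with a window. Each window is the 250 bases before a start, on the plus strand, read 5′ to 3′. Capitals mark the SOX motif ACAATG, which reads as CATTGT on the other strand, and the E-box CACCTG, which reads as CAGGTG on the other strand and is a core bound by ZEB and SNAI repressors. The palindromic GRHL motif AACCGGTT and its inner part ACCGGT, which overlap, were searched too. 
GRHL3 upstream start, chr1:24319107-24319356: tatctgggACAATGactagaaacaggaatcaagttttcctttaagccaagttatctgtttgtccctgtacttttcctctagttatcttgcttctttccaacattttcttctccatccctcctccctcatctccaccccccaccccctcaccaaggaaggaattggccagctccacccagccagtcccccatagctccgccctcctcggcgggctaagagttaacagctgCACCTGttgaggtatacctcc
GRHL3 downstream start, chr1:24322790-24323039: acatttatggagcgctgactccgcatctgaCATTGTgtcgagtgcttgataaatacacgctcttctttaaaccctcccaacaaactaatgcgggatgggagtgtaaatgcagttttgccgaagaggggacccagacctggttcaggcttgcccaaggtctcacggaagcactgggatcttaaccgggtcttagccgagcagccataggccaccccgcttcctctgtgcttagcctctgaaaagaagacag
GRHL1, chr2:9951443-9951692: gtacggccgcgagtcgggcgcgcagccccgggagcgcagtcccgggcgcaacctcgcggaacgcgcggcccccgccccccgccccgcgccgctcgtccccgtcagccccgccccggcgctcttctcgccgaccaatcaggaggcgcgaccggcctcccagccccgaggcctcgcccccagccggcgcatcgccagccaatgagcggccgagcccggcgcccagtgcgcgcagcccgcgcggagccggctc

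In the upstream GRHL3 window the SOX motif began 242 bases before the start and the E-box 21 bases before it. The downstream GRHL3 window held a SOX motif 220 bases before its start and no E-box. The GRHL1 window held none of these motifs and was richer in G and C, at 81.6% against 50.8% and 52% in the GRHL3 windows. Among 35116 RefSeq windows of the same length, 9.29% held the SOX motif, 17.5% the E-box, 1.45% ACCGGT and 0.117% AACCGGTT, so neither GRHL3 match is rare. A match of letters describes the window and does not show a bound site.

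All values are log2 signals from the deposited table, where a difference of 1 is a 2-fold change in signal. SOX2, the targeted gene, read 9.17, 9.30 and 8.80 in siSOX2 2102Ep cells, against 12.28, 12.21 and 12.20 in control 2102Ep cells. In NTera-2 cells it read 11.92, 11.95 and 11.86 with siSOX2, against 12.51, 12.52 and 12.63 with control siRNA. SOX2 fell by 3.14 (SE 0.12, adjusted p = 6.22e-12) in 2102Ep cells and by 0.64 (SE 0.12, adjusted p = 0.00225) in NTera-2 cells. The transcript was thus lowered far less in NTera-2 cells, and a member's response in the lines stands beside this unequal fall in mRNA. By Western blot the study detected no SOX2 protein in siSOX2 cells of either line, and the arrays do not measure protein. The arrays of each group correlated with each other at 0.983 to 0.994 (Pearson). The mean of 12 embryonal carcinoma marker genes per array was 10.83 to 10.97 in siSOX2 2102Ep cells, against 11.36 to 11.59 in controls, and 10.89 to 11.10 in siSOX2 NTera-2 cells, against 11.27 to 11.53 in controls. Of these 12 markers 3 were called lower in 2102Ep cells (1 without control replicate 2), where 1.98% of all genes were called. In NTera-2 cells 2 were called lower (1 without control replicate 2 or 3 or siSOX2 replicate 1 or 2), against 0.657% of all genes called, and none were higher in either line. For 8 fibroblast markers it was 7.08 to 7.17 with siSOX2, against 6.82 to 7.07 with control siRNA in 2102Ep cells, and 6.95 to 7.13 with siSOX2, against 6.75 to 6.89 with control siRNA in NTera-2 cells, with 0 of the 8 called by limma in either knock-down. At the adjusted p 1 was higher and 1 lower in 2102Ep cells, against 12.7% of all genes, and 3 were higher and 1 lower in NTera-2 cells, against 4.94%. At an unadjusted p of 0.05 the count was 3 in 2102Ep and 6 in NTera-2 cells. The share of all genes past an unadjusted p of 0.05 was not computed, so such counts, here and for later lists, have no background to compare with. The means of 5 leukocyte markers (5.44 to 5.67 over all arrays) and of 5 keratinocyte markers overlapped between siSOX2 and control arrays in both lines. The part of these marker shifts in the members' changes was not tested. In bulk RNA, fewer cells of a type and less RNA per cell cannot be told apart.

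A dim probe set cannot show how low a gene is, so a difference against such a level is one of signals and not a measure of how much RNA remained. As a yardstick, 340 olfactory receptor genes, which are silent in most tissues, had a median signal of 5.40, and the median of all genes was 8.03. GRHL1 stayed below the 95th percentile of these olfactory genes in all 4 groups, with group means of 6.94 in siSOX2 and 6.58 in control 2102Ep cells (percentiles 7.05 and 7.02), and 5.95 in siSOX2 and 5.97 in control NTera-2 cells (percentiles 6.79 and 6.89). GRHL2 was below it in both NTera-2 groups and above it in both 2102Ep groups. OVOL1 was below it in control NTera-2 cells (6.78) and just above it in siSOX2 NTera-2 cells (6.89). GRHL3, OVOL2 and ESRP2 were above it in every group. A signal below this percentile is called within the olfactory range here, for list genes too.

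**Figure D1:**
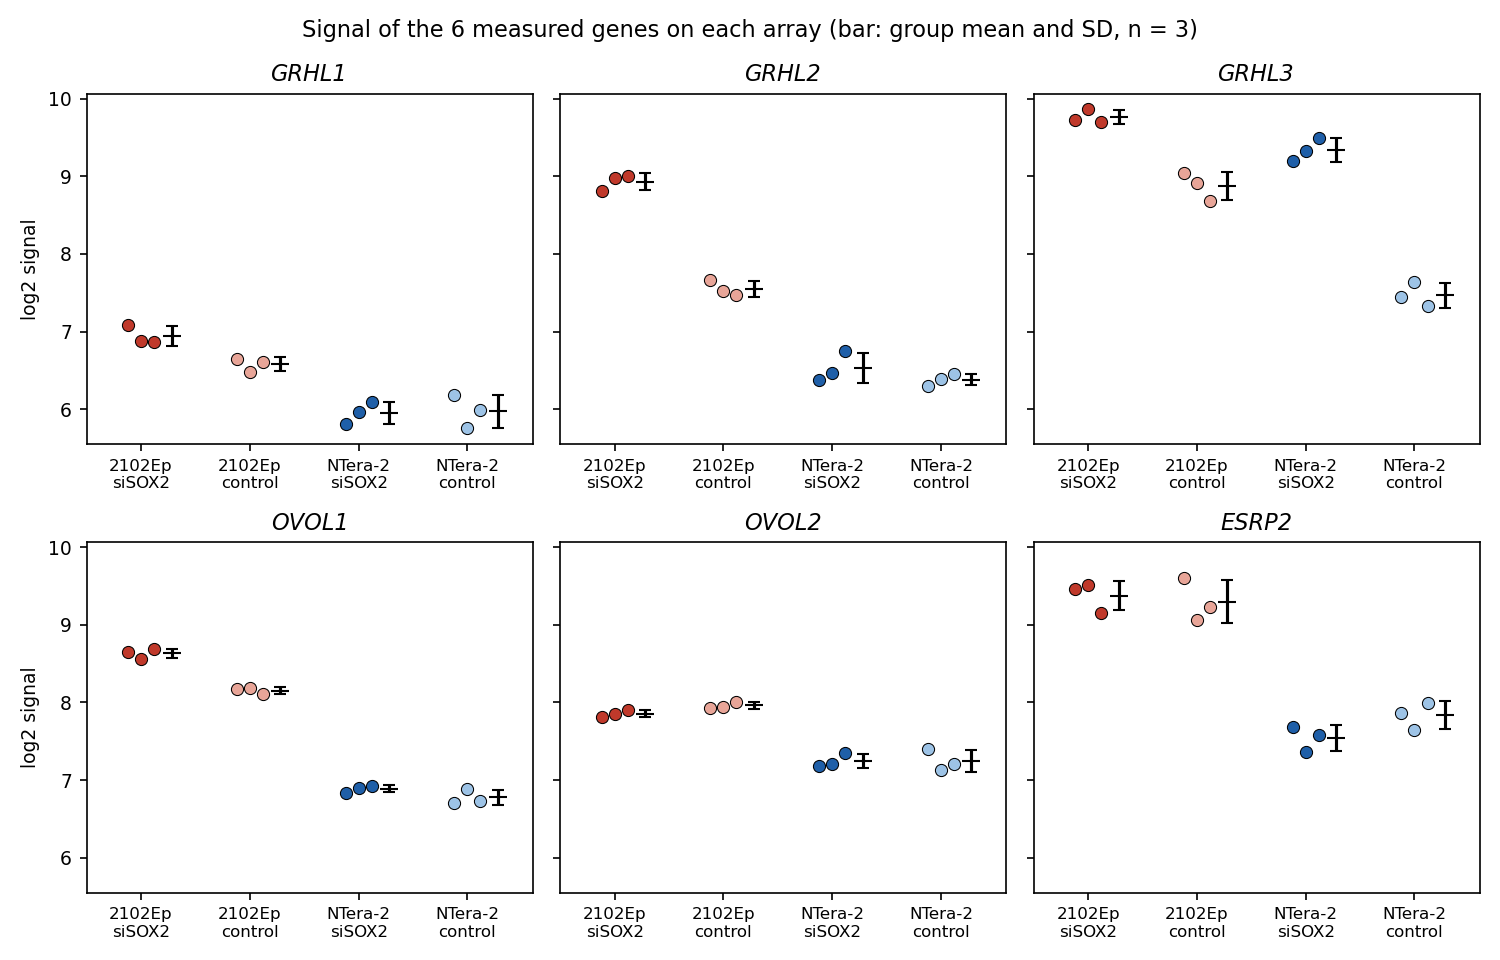
Log2 signal (y axis) of GRHL1, GRHL2, GRHL3, OVOL1, OVOL2 and ESRP2 on each of the 12 arrays, by cell line and siRNA (x axis); points are arrays and bars the group mean and SD (n = 3). GRHL2 rose in 2102Ep cells only by the test, GRHL3 stood higher with siSOX2 in both lines, and every gene was lower in NTera-2 than in 2102Ep cells at the same siRNA.

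The first question was how these regulators change after siSOX2 in 2102Ep cells. A single siRNA against SOX2 was used, so effects of that siRNA other than through SOX2 cannot be told apart. GRHL2 rose 2.60-fold and was called, GRHL3 and OVOL1 rose by less than 2-fold, and GRHL1, OVOL2 and ESRP2 did not pass the test. Calls required a change of at least 2-fold together with a limma p of at most 0.01 and, after Benjamini-Hochberg correction over all genes, an adjusted p of at most 0.05. By that rule 1 of the 6 members was called in 2102Ep cells, where 1.98% of all genes tested were. At the adjusted p alone 3 of the 6 passed, against 12.7% of all genes.

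GRHL2, an activator of E-cadherin and claudin genes, had log2 signals of 8.81, 8.98 and 9.01 in siSOX2 2102Ep cells, against 7.67, 7.53 and 7.47 in control 2102Ep cells. Every siSOX2 array lay far above every control array. The change was 1.38 (SE 0.11, 95% interval 1.14 to 1.62, adjusted p = 1.45e-07), and GRHL2 had the 107th largest rise among all genes. GRHL3, the grainyhead-like gene of skin barrier and neural tube closure, read 9.72, 9.86 and 9.70 with siSOX2, against 9.04, 8.92 and 8.69 with control siRNA. The groups did not overlap, and the change of 0.88 (SE 0.12, adjusted p = 5.60e-05) was 1.84-fold, short of the 2-fold threshold. OVOL1, a repressor acting in epidermal and germ cell differentiation, read 8.65, 8.57 and 8.69 with siSOX2, against 8.17, 8.19 and 8.10 with control siRNA. Again all siSOX2 arrays were above all controls, with a change of 0.48 (SE 0.10, adjusted p = 0.00191), or 1.39-fold.

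GRHL1, which acts in desmosome formation in the epidermis, read 7.08, 6.88 and 6.86 in siSOX2 2102Ep cells, against 6.65, 6.48 and 6.61 in control 2102Ep cells. The arrays did not overlap, the change was 0.36 (SE 0.12, interval 0.11 to 0.62), and the adjusted p of 0.0594 missed the threshold at a signal within the range of the olfactory genes. It passed once the arrays were centred on their medians, with the change still under 2-fold. OVOL2, the relative of OVOL1 that maintains epithelial identity against ZEB1, read 7.82, 7.85 and 7.90 with siSOX2, against 7.93, 7.95 and 8.01 with control siRNA. Every siSOX2 array was slightly below every control array, but the change was −0.11 (interval −0.32 to 0.11, adjusted p = 0.617). ESRP2, the splicing regulator, read 9.46, 9.51 and 9.16 with siSOX2, against 9.60, 9.06 and 9.24 with control siRNA. Its groups overlapped, with a change of 0.08 (interval −0.23 to 0.39, adjusted p = 0.837), which as a share of the control signal spans 85.2% to 131%.

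In NTera-2 cells GRHL3 rose 3.65-fold and was the single member called of 6, where 0.657% of all genes were called. It was also the single member past the adjusted p, against 4.94% of all genes. GRHL3 read 9.19, 9.32 and 9.50 in siSOX2 NTera-2 cells, against 7.44, 7.64 and 7.33 in control NTera-2 cells. The groups did not overlap. The change was 1.87 (SE 0.12, interval 1.61 to 2.13, adjusted p = 5.71e-08), the 8th largest rise of all genes in this line, while SOX2 itself fell by less than 2-fold on these arrays.

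The other members did not pass the test in NTera-2 cells. GRHL2 read 6.38, 6.47 and 6.75 with siSOX2, against 6.30, 6.38 and 6.45 with control siRNA, a change of 0.15 (interval −0.09 to 0.39, adjusted p = 0.635) with overlapping groups. OVOL1 read 6.84, 6.90 and 6.92 with siSOX2, against 6.70, 6.89 and 6.74 with control siRNA, a change of 0.11 (interval −0.09 to 0.31, adjusted p = 0.695). Both genes were near the upper range of the olfactory genes in this line. GRHL1 read 5.81, 5.96 and 6.09 with siSOX2, against 6.18, 5.75 and 5.98 with control siRNA, with a change of −0.02 (adjusted p = 0.980). OVOL2 read 7.18, 7.21 and 7.35 with siSOX2, against 7.40, 7.13 and 7.20 with control siRNA, with a change of 0.00 (interval −0.21 to 0.21, adjusted p = 0.998). ESRP2 read 7.68, 7.36 and 7.58 with siSOX2, against 7.87, 7.65 and 7.997 with control siRNA. Its change was −0.29 (interval −0.60 to 0.01, adjusted p = 0.370), the lowest of the 6, and the groups overlapped.

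**Figure D2:**
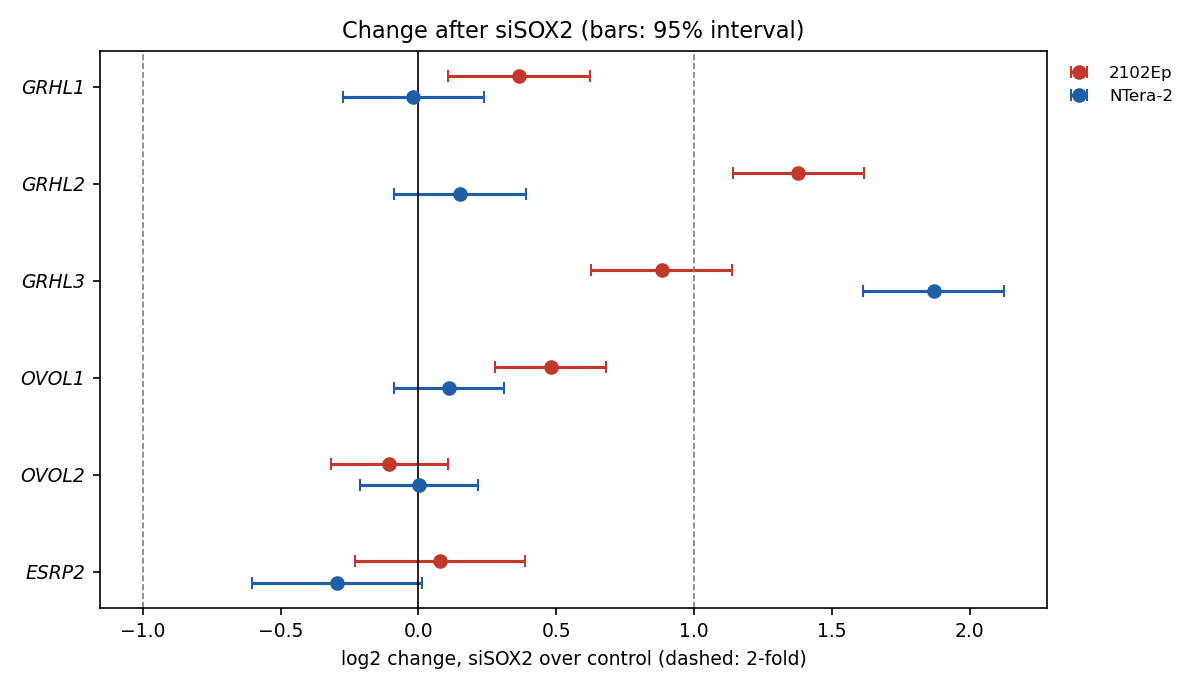
Log2 change after siSOX2 over control siRNA (x axis) for each measured gene (y axis) in 2102Ep and NTera-2 cells; bars are 95% intervals and dashed lines mark 2-fold. GRHL2 passed 2-fold in 2102Ep cells (1.38) but not in NTera-2 cells (0.15), and GRHL3 in NTera-2 cells (1.87) but not in 2102Ep cells (0.88).

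Whether a member responded differently in the lines was tested directly, as the change in 2102Ep minus the change in NTera-2 cells. This difference uses the same arrays as both knock-down comparisons and so adds no independent evidence on either. GRHL2 and GRHL3 departed in opposite directions. For GRHL2 the difference was 1.23 (SE 0.16, interval 0.89 to 1.56, adjusted p = 0.000104), the larger rise being in 2102Ep cells and the NTera-2 signals lying within the olfactory range. For GRHL3 it was −0.99 (SE 0.17, interval −1.35 to −0.63, adjusted p = 0.00157), the larger rise being in NTera-2 cells and the size just short of 2-fold. GRHL2 was thus the single member called of 6, where 1.66% of all genes were called, and 2 of the 6 passed the adjusted p, against 5.20% of all genes. OVOL1 (0.37, adjusted p = 0.156), GRHL1 (0.38, adjusted p = 0.293), ESRP2 (0.37, adjusted p = 0.463) and OVOL2 (−0.11, adjusted p = 0.863) did not pass, so their responses were not shown to differ between the lines.

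The lines were then compared at the same siRNA. Among controls all 6 members were lower in NTera-2 than in 2102Ep cells, on every array and past the adjusted p, where 42.4% of all genes passed it in either direction. The share of all genes with arrays separated in this way was not computed. With the 2-fold threshold 4 of the 6 were called, against 7.76% of all genes. ESRP2 differed by −1.46 (SE 0.15, adjusted p = 4.11e-07), GRHL3 by −1.41 (SE 0.12, adjusted p = 7.24e-08), OVOL1 by −1.38 (SE 0.10, adjusted p = 4.97e-09) and GRHL2 by −1.17 (SE 0.11, adjusted p = 2.76e-07). Control NTera-2 cells thus carried 36.3% of the ESRP2 signal of control 2102Ep cells and 37.5% of the GRHL3 signal. The NTera-2 control signals of OVOL1, GRHL2 and GRHL1 lay within the olfactory range, so no share is given for them. OVOL2 (−0.72, adjusted p = 1.82e-05) and GRHL1 (−0.61, adjusted p = 0.000599) were lower by less than 2-fold.

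Among siSOX2 arrays the same direction held for all 6 members, with 3 of the 6 called against 7.65% of all genes and 6 of 6 past the adjusted p against 41.6%. GRHL2 differed by −2.40 in signal (SE 0.11, adjusted p = 3.57e-11), its siSOX2 NTera-2 signal (6.53) lying within the olfactory range (95th percentile 6.79). ESRP2 differed by −1.83 (adjusted p = 2.83e-08) and OVOL1 by −1.75 (adjusted p = 2.46e-10). GRHL3 differed by −0.43 (SE 0.12, interval −0.68 to −0.17, adjusted p = 0.00887), with siSOX2 NTera-2 cells at 74.5% of siSOX2 2102Ep cells. Without siSOX2 NTera-2 replicate 1 its adjusted p was 0.0536, with a difference of −0.35, and leaving out other arrays gave adjusted p values down to 0.00471. GRHL1 (−0.99, adjusted p = 4.24e-06) and OVOL2 (−0.61, adjusted p = 9.89e-05) remained below 2-fold.

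**Figure D3:**
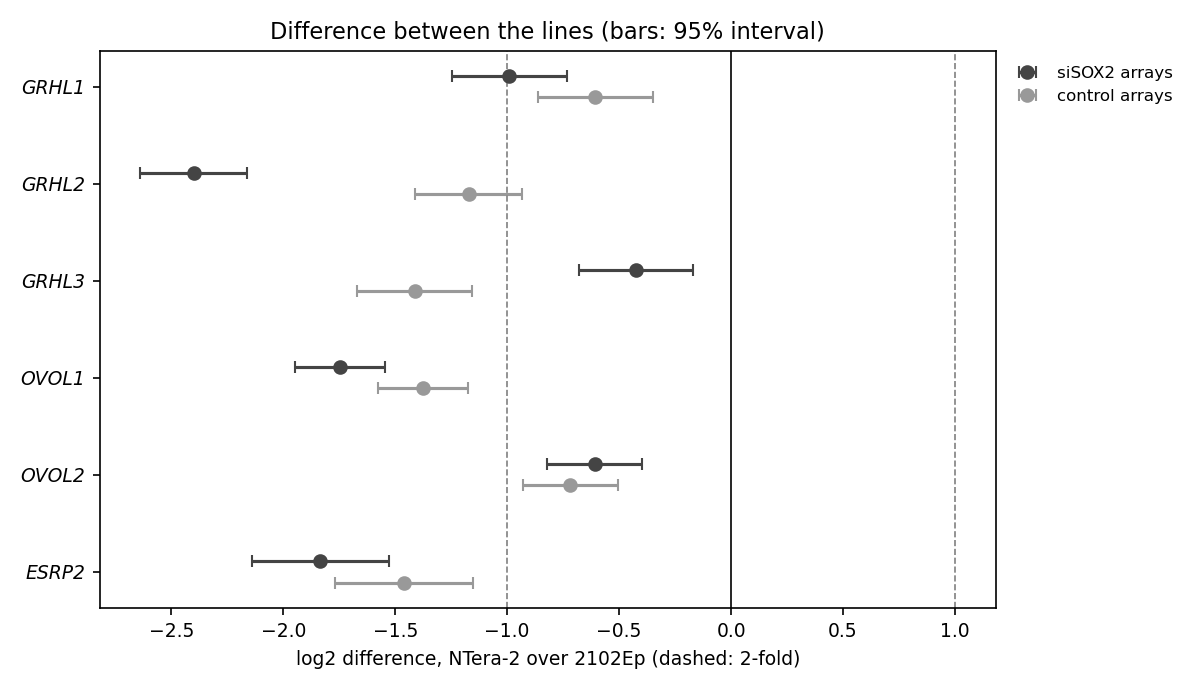
Log2 difference of NTera-2 over 2102Ep cells (x axis) for each measured gene (y axis), among siSOX2 arrays and among control arrays; bars are 95% intervals and dashed lines mark 2-fold. All points lie below 0; GRHL2 was farther apart among siSOX2 arrays (−2.40 against −1.17) and GRHL3 among control arrays (−1.41 against −0.43).

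The order of the groups therefore differed between members. GRHL2 was highest in siSOX2 2102Ep cells (8.93 ± 0.11), then control 2102Ep (7.55 ± 0.10), siSOX2 NTera-2 (6.53 ± 0.19) and control NTera-2 cells (6.38 ± 0.08), the last 2 not differing by the test (SD, n = 3 each). GRHL3 was highest in siSOX2 2102Ep cells (9.76 ± 0.09), then siSOX2 NTera-2 (9.34 ± 0.15), control 2102Ep (8.88 ± 0.18) and control NTera-2 cells (7.47 ± 0.16). It was the single member whose siSOX2 NTera-2 arrays were all above the control 2102Ep arrays, an order read from the arrays and not tested. The share of all genes in this order was not computed. For GRHL1, OVOL2 and ESRP2 the groups of a line were not separated by the test and the lines were.

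Around these regulators, genes of their pathway were read from lists compiled by role, also with earlier results of these data known. The epithelial effector genes of GRHL and OVOL proteins had 19 measured members. In 2102Ep cells 2 were called higher and 0 lower after siSOX2, with a median change of 0.02 against −0.01 over all genes. Of all genes 1.98% were called there, in either direction. RAB25, a small GTPase of epithelial membrane recycling, read 8.52, 8.58 and 8.43 with siSOX2, against 6.85, 6.79 and 6.38 with control siRNA (1.84, adjusted p = 5.60e-09), the control mean of 6.67 lying within the olfactory range. CLDN4, a tight junction claudin, read 8.96, 9.37 and 9.06 with siSOX2, against 7.86, 7.96 and 8.01 with control siRNA (1.19, adjusted p = 1.01e-06). At the adjusted p alone 4 of the 19 were higher and 2 lower, against 12.7% of all genes in either direction.

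In NTera-2 cells CDH1, which encodes E-cadherin, was the single effector gene called of 19, where 0.657% of all genes were called. CDH1 read 9.23, 9.13 and 9.50 with siSOX2, against 7.48, 8.09 and 7.68 with control siRNA (1.54, adjusted p = 5.37e-06). In 2102Ep cells CDH1 rose by 0.71 (adjusted p = 0.00363), and the difference between the lines was −0.83 (adjusted p = 0.0314). CDH1 thus had the larger rise in the line where GRHL3 had its larger rise, and RAB25 (difference 1.43, adjusted p = 3.01e-05) and CLDN4 (1.08, adjusted p = 0.000397, under 2-fold without 2102Ep siSOX2 replicate 2, and within the olfactory range in both NTera-2 groups) in the line where GRHL2 had its larger rise. Over all 19 effector genes 2 differences were higher and 2 lower at the adjusted p, against 5.2% of all genes. Their median was 0.02, against −0.05 over all genes. Any link between these genes and the members was not tested.

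Between the control lines 13 of the 19 effector genes were called lower in NTera-2 cells and 0 higher, with a median of −1.37 against −0.06 over all genes. Of all genes 7.76% were called there, in either direction. CLDN7 read 8.15, 7.81 and 8.01 in control NTera-2 cells, against 12.66, 12.57 and 12.22 in control 2102Ep cells (−4.49, adjusted p = 2.69e-13). CDH1 differed by −3.58 (adjusted p = 1.40e-11). RAB25 was the exception past the adjusted p, being higher in NTera-2 controls (0.56, adjusted p = 0.00083) against a 2102Ep control signal within the olfactory range. Among siSOX2 arrays 11 of the 19 were called lower and 0 higher, with a median of −1.22 against −0.02 over all genes, of which 7.65% were called.

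The ZEB, SNAI and TWIST repressors, which oppose the epithelial programme, had 6 measured genes. In 2102Ep cells 3 were called higher after siSOX2 and 0 lower, where 1.98% of all genes were called. Their median change was 0.85, against −0.01 over all genes. SNAI2 read 9.87, 9.80 and 10.11 with siSOX2, against 6.43, 6.78 and 6.92 with control siRNA (3.22, adjusted p = 3.30e-10). SNAI1 rose by 1.57 (adjusted p = 2.67e-07) and ZEB2 by 1.14 (adjusted p = 7.12e-07), although a second, dimmer ZEB2 probe set changed by 0.05. The control 2102Ep signals of SNAI2 (6.71) and ZEB2 (6.18) were within the olfactory range (95th percentile 7.02), and that of SNAI1 was above it. In NTera-2 cells SNAI2 was the single gene called (2.07, adjusted p = 4.59e-07), where 0.657% of all genes were called. The list median was 0.36, against 0.04 over all genes. ZEB1, the target of OVOL2 and opponent of GRHL2, did not pass in either line (0.42, adjusted p = 0.0944 in 2102Ep and 0.01, adjusted p = 0.992 in NTera-2 cells). Between control lines ZEB2 (2.15), ZEB1 (1.99) and SNAI2 (1.66) were called higher in NTera-2 cells, where 7.76% of all genes were called in either direction. The second, dimmer ZEB2 probe set differed by 0.53. All 3 genes had control 2102Ep signals within the olfactory range, with ZEB1 at 6.39, and ZEB1 was within it in siSOX2 2102Ep cells too (6.81).

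**Figure D4:**
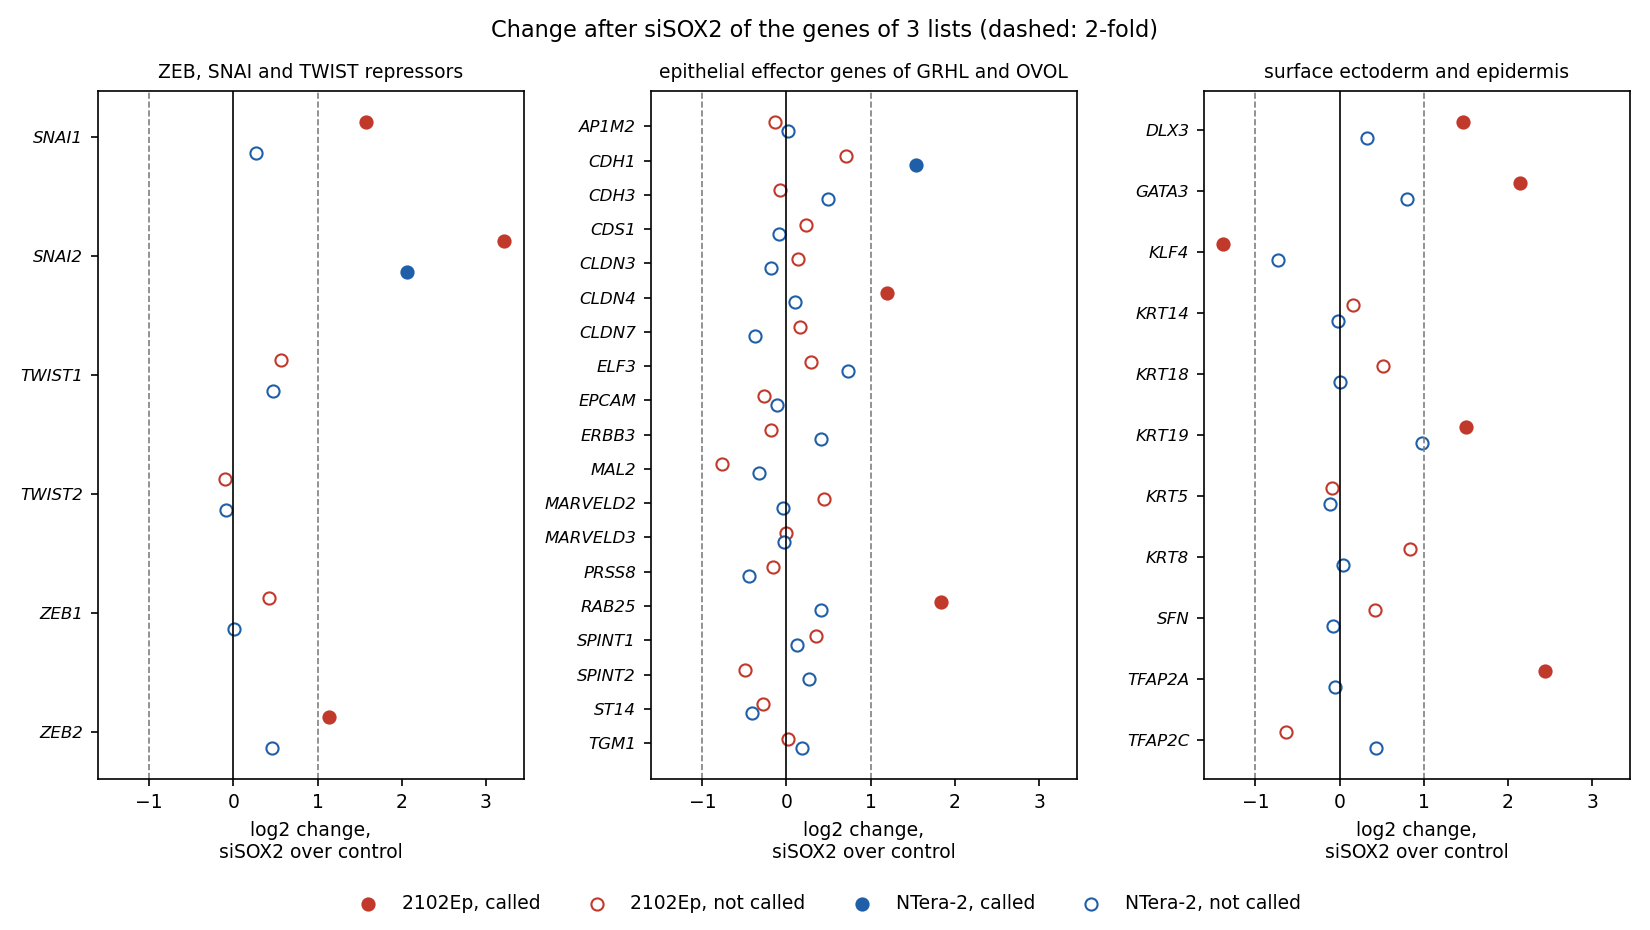
Log2 change after siSOX2 over control siRNA (x axis) for every measured gene (y axis) of 3 lists, in 2102Ep and NTera-2 cells; filled points were called and dashed lines mark 2-fold. SNAI2 rose past 2-fold in both lines (3.22 and 2.07), while most epithelial effector genes lie near 0.

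The surface ectoderm and epidermis list had 11 measured genes. In 2102Ep cells 4 were called higher and 1 lower, where 1.98% of all genes were called. Their median change was 0.52, against −0.01 over all genes. TFAP2A, an early surface ectoderm factor, read 9.65, 9.56 and 9.67 with siSOX2, against 7.12, 7.23 and 7.22 with control siRNA (2.44, adjusted p = 1.48e-10). GATA3 (2.15), KRT19 (1.505) and DLX3 (1.47) rose as well, and KLF4, a factor of both pluripotency and the skin barrier, fell by 1.38. The keratins of basal epidermis, KRT5 and KRT14, did not pass. In NTera-2 cells limma called 0 of the 11, against 0.657% of all genes, with a median of 0.01 against 0.04. At the adjusted p 3 were higher and 1 lower, against 4.94% of all genes, and 5 passed an unadjusted p of 0.05. Without NTera-2 control replicate 1, siSOX2 replicate 1 or siSOX2 replicate 2 the number called was 1. The difference between the lines was called for TFAP2A (2.49, adjusted p = 5.16e-08), GATA3 (1.35, adjusted p = 0.000294) and DLX3 (1.14, adjusted p = 0.000126), with DLX3 within the olfactory range in control NTera-2 cells. It was also called in the other direction for TFAP2C, a second AP-2 factor (−1.06, adjusted p = 0.000613), which fell by 0.63 in 2102Ep cells (adjusted p = 0.00108) and rose by 0.43 in NTera-2 cells (adjusted p = 0.0423). Without 2102Ep siSOX2 replicate 3 or NTera-2 control replicate 1, TFAP2C fell under 2-fold and 3 of these 4 differences were called. Of all genes 1.66% were called for the difference with every array kept.

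Of the mesenchymal list, 4 of 10 genes were called higher and 0 lower in 2102Ep cells, where 1.98% of all genes were called. The list median was 0.83, against −0.01 over all genes. The called genes were CDH11 (3.19), FN1 (2.45), MMP2 (1.96) and CDH2 (1.21), a pair of cadherins, fibronectin and a matrix protease. In NTera-2 cells limma called 0 of the 10, against 0.657% of all genes, and the median was 0.01 against 0.04. At the adjusted p 2 were higher and 2 lower, against 4.94% of all genes, and 5 passed an unadjusted p of 0.05. Without NTera-2 control replicate 1 or 3, or siSOX2 replicate 2 or 3, the number called was 1. There the group means of CDH2 (9.05 with siSOX2, 9.81 with control siRNA) and TNC (9.33 and 10.29) were lower with siSOX2. Those of CDH11 (10.30 and 9.35) and FN1 (11.87 and 11.06) were higher. The difference between the lines was called higher for 6 of the 10 (5 to 6 with an array left out) and lower for 0, against 1.66% of all genes. Its median was 1.33, against −0.05 over all genes. GRHL2, RAB25 and CLDN4 thus rose in the same 2102Ep arrays as CDH11 and FN1.

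ESRP2 has its counterparts among RNA-binding proteins and spliced transcripts. Of all genes 1.98% were called in 2102Ep and 0.657% in NTera-2 cells, and 12.7% and 4.94% passed the adjusted p. Of 11 other splicing regulators of the epithelial and mesenchymal states limma called 0 in either knock-down. At the adjusted p 1 was higher in 2102Ep cells, and 1 was higher and 1 lower in NTera-2 cells, and 5 and 2 passed an unadjusted p of 0.05 in these lines. Of 9 transcripts that ESRP proteins splice limma called 0 in either knock-down, with 1 higher (CD44, 0.91) and 1 lower (FGFR2, −0.68) at the adjusted p in 2102Ep cells and 0 in NTera-2 cells. At an unadjusted p of 0.05 the count was 5 in 2102Ep and 0 in NTera-2 cells, with no share of all genes to set beside it. Without 2102Ep control replicate 1 or siSOX2 replicate 3, 1 transcript was called in 2102Ep cells. The signals are per gene and say nothing of isoforms, so splicing itself was not analysed here. Precursors of the miR-200 family, microRNAs that target ZEB transcripts, had 5 measured genes. Of these limma called 0 in either knock-down and 0 passed an unadjusted p of 0.05. The probe sets stand for precursors, so mature microRNA levels were not analysed here. By quantitative PCR of mature microRNAs the study reported a fall of a member of this family in each line, a different one in each. The array signals therefore do not show that the family was unchanged. MIR200C read 5.86, 5.75 and 5.96 in control NTera-2 cells, against 7.48, 6.98 and 7.41 in control 2102Ep cells (−1.43, adjusted p = 7.11e-07). It was the single precursor called of 5 between the control lines, against 7.76% of all genes, and its NTera-2 signal was within the olfactory range. MIR141 (−0.89) passed the adjusted p below 2-fold, and MIR200A (−0.17), MIR200B (−0.20) and MIR429 (−0.21) did not pass. MIR141, MIR200A and MIR429 were within the olfactory range in all 4 groups.

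The other branch of the grainyhead superfamily, the CP2 genes, was listed with the remaining OVOL gene, and 3 of these genes were measured. TFCP2L1, a pluripotency factor, read 8.74, 8.88 and 8.41 in siSOX2 2102Ep cells, against 10.15, 9.54 and 9.75 in control 2102Ep cells. It fell by 1.14 (adjusted p = 3.59e-05) where GRHL2 and GRHL3 rose, and without control replicate 1 the fall was 0.97, just under 2-fold. In NTera-2 cells its change was −0.23 (adjusted p = 0.563). Among controls the TFCP2L1 difference of NTera-2 over 2102Ep cells was −2.34 (adjusted p = 1.93e-09), in the direction of the members. The list did not share that direction. Of its 3 measured genes 1 was lower and 1 higher at the adjusted p between control lines, against 42.4% of all genes. Their median was 0.24, against −0.06 over all genes.

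Across the 12 arrays the members split by likeness of pattern. GRHL1, GRHL2, OVOL1, OVOL2 and ESRP2 correlated with each other at 0.800 to 0.955 (Pearson), and GRHL3 correlated with them at 0.431 to 0.678. The arrays of a group share their line and siRNA, and no correlation was computed within a line. Among the genes above the median signal, those most like GRHL2 were WIPI1 (r = 0.992), KRT7 (r = 0.992) and IL6ST (r = 0.988). KRT7, a keratin of simple epithelia, changed by 0.84 in 2102Ep cells (adjusted p = 3.61e-05) and by 0.10 in NTera-2 cells (adjusted p = 0.795). Those most like GRHL3 were EPHB3 (r = 0.979), DACT1 (r = 0.978) and SLIT3 (r = 0.970). EPHB3, an ephrin receptor, rose by 1.01 in NTera-2 cells (adjusted p = 1.66e-05) and by 0.52 in 2102Ep cells (adjusted p = 0.00336). KRT7 and EPHB3 were picked by their likeness to a member over these same arrays, so their changes add no independent evidence. OVOL1 was most like TMBIM1 (r = 0.993), CDKN1A (r = 0.992) and KLK6 (r = 0.991), and ESRP2 most like MCAM (r = 0.989), PSMD3 (r = 0.987) and RAB17 (r = 0.986).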

How the data were processed

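Total RNA was profiled on Affymetrix Human Gene 1.0 ST arrays, 3 biological replicates per group. The authors processed the arrays with the robust multi-array average, and the deposited values were read as log2 signals from their range (1.57 to 14.98), and no software version is stated for this step. Of 32321 probe sets, 19158 carried 1 gene, 1388 several and 11775 none in the platform annotation. Only those with 1 gene were used, and the probe set with the highest mean stood for each of 18404 genes. Group means were fitted over all 12 arrays in limma 3.58.1 (R 4.3.3) with Benjamini-Hochberg adjustment over all genes, without a low-signal filter, and tested on simulated data. Named genes were the members, up to 4 list genes called in a knock-down per line, counter-examples, and the 3 genes most correlated with each called member. KRT5, KRT14, ZEB1, CLDN7, CD44, FGFR2, TFAP2C and the miR-200 precursors were named after their values were seen. The members and lists were chosen with earlier results of these data known. The titles call the replicates biological, and their independence is not described further, so p-values measure the spread between these arrays. The array number limits precision. Alternatives covered normalisation, filtering, probe set choice, thresholds, the samples fitted, a replicate block and leaving out each array.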

Additional observations from a re-analysis of the deposited data

Results flagged for a closer look

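The response to siSOX2 differed between the lines by a direct test for 2 members, in opposite directions. GRHL2 changed by 1.38 in 2102Ep cells and by 0.15 in NTera-2 cells, a difference of 1.23 (1.227, adjusted p = 0.000104, limma over all genes). GRHL3 changed by 0.88 in 2102Ep cells and by 1.87 in NTera-2 cells, a difference of −0.99 (−0.988, adjusted p = 0.00157). SOX2 fell by 3.14 in 2102Ep cells and by 0.64 in NTera-2 cells on the same arrays. By Western blot the study detected no SOX2 protein in siSOX2 cells of either line. The share of the unequal fall in SOX2 mRNA and of the different transfection reagents in these differences was not tested. Reagent and line cannot be told apart.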

How the results depend on the processing

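The number of genes called in 2102Ep cells, in NTera-2 cells, for the difference between them, between control lines and between siSOX2 lines was 364, 121, 305, 1429 and 1407. With genes below the median signal left out it was 212, 66, 166, 866 and 818, fewer genes being tested, and GRHL1, GRHL2, OVOL1 and OVOL2 dropped out. With no fold threshold it was 2330, 909, 957, 7809 and 7651, and 3 members were called in 2102Ep cells, 2 for the difference, 6 between control lines (4 with the threshold) and 6 between siSOX2 lines. With limma's treat against a 1.2-fold change 866, 252, 3862 and 3887 genes were called in the knock-downs and between lines, and 2 members in 2102Ep cells, 2 for the difference, 6 between control lines and 5 between siSOX2 lines. Leaving out each array gave 353 to 391, 121 to 129, 297 to 331, 1388 to 1520 and 1358 to 1540 genes, and 1 to 1, 1 to 1, 1 to 2, 4 to 4 and 3 to 4 members. The difference of GRHL3 passed 2-fold without 2102Ep control replicate 3 (−1.09), 2102Ep siSOX2 replicate 2 (−1.04), NTera-2 control replicate 2 (−1.07) or NTera-2 siSOX2 replicate 1 (−1.06). Between siSOX2 lines GRHL1 passed it with median centring (−1.01) and without 2102Ep siSOX2 replicate 2 (−1.02) or 3 (−1.03) or NTera-2 siSOX2 replicate 3 (−1.06). In 2102Ep cells GRHL1 passed the adjusted p with median centring, with repeated quantile normalisation and without NTera-2 control replicate 1 or 2 (0.0457 to 0.24 over the arrays left out), but 2-fold in none of these. ZEB2 fell short of 2-fold as the mean of its 2 probe sets (0.592). Direction turned only for changes near 0 that did not pass the test. In NTera-2 cells OVOL2 turned to −0.0347 with median centring and −0.0339 with repeated quantile normalisation, and ran from −0.0557 to 0.0800 with an array left out, turning without control replicate 2, control replicate 3 or siSOX2 replicate 3. GRHL1 in NTera-2 cells ran from −0.1284 to 0.0839, turning without control replicate 1 or siSOX2 replicate 1, and ESRP2 in 2102Ep cells from −0.0430 to 0.2291, turning without control replicate 2. The cause was not tested. Pairing by replicate number was not shown. Deviations of same-numbered arrays correlated at 0.07, 0.18 and 0.13 in 2102Ep and −0.25, −0.21 and 0.14 in NTera-2 cells. Those of arrays with different numbers ran from −0.39 to 0.30 and from −0.23 to 0.34. With 3 arrays per group these values cannot exclude a shared batch. With the replicate number as a block 365, 121, 308, 1429 and 1407 genes were called, and none of the members' 30 calls changed.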
